A study of Mus musculus with 16 samples.

Results

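Npas4 is a transcription factor gene that neurons switch on within minutes of electrical activity. It is described here as 1 of the 770 genes of a neuropathology panel, in whole brain of 16 mice. The gene was taken as its row in the deposited table of values, and it was chosen by its measured levels in these animals, that is its levels by genotype, its spread between animals of one genotype and its correlation with other activity-induced genes. These values are therefore given as a description, with no test of Npas4 between genotypes or against other genes.

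The animals were female mice aged 6 months, and total RNA of the whole brain was hybridized to barcoded probes that are counted singly without amplification (nCounter). Wild type mice (n = 4) were compared with Grn knockout mice (n = 4), which lack progranulin, a secreted and lysosomal protein. Trem2 knockout mice (n = 4) lack a lipid-sensing receptor of microglia. Mice lacking both Grn and Trem2 (n = 4) are called the double knockout. The knockout alleles, the strain, the time of day of collection and the handling before it are not stated in the labels. RNA of whole brain mixes all regions, so fewer cells of a type and less RNA per cell cannot be told apart.

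Each animal gave between 477113 and 767742 gene counts, with 655 to 714 genes above the level of the negative controls. Values are normalized counts, meaning counts multiplied by 1 factor per animal so that 10 reference genes keep the same geometric mean. The targeted genes bore out the labels. Grn was 564.55 to 661.81 in wild type and 544.39 to 620.09 in Trem2 knockout mice, against 9.48 to 20.36 in Grn knockout and 12.5 to 23.09 in double-knockout mice. Trem2 was 127.9 to 159.95 in wild type and 188.28 to 251.12 in Grn knockout mice, against 8.69 to 35.4 in Trem2 knockout and 5.02 to 20.38 in double-knockout mice. Trem2 knockout replicate 1, at 35.4, was the single animal lacking the gene whose value exceeded its background threshold.

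Npas4 protein is a basic helix-loop-helix PAS-domain factor that works as a dimer with ARNT proteins. In rodent neurons its transcription follows calcium entry through NMDA receptors and voltage-gated channels, and it is known for shaping inhibitory synapses and for inducing Bdnf. Other genes of the immediate early response, among them Fos, Egr1 and Arc, are induced by growth factors and further signals as well as by calcium, whereas Npas4 is regarded as selective for calcium entry.

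The gene lies on the minus strand of mouse chromosome 19 in RefSeq's annotation of GRCm38.p6. Its 250 bases upstream of the annotated start are shown because 2 partial matches to the cyclic AMP response element (CRE) stand close together there. The CRE is the site bound by CREB, and binding was not measured here. The window of Fos, the gene whose level followed Npas4 most closely across the 16 animals, is shown for comparison. Both sequences are RefSeq's, from GRCm38.p6, at chr19:4989972-4990221 (minus strand) and chr12:85473640-85473889 (plus strand). Each is written 5′ to 3′ on the strand of its gene. Capitals mark matches to TGACGTC or its shorter core TGACG on either strand, and to TATAA on the gene's own strand.
Npas4: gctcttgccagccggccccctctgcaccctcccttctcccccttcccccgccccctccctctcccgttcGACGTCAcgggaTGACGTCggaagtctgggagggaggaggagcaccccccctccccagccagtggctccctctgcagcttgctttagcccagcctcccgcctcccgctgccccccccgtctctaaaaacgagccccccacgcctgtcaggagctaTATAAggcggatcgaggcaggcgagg
Fos: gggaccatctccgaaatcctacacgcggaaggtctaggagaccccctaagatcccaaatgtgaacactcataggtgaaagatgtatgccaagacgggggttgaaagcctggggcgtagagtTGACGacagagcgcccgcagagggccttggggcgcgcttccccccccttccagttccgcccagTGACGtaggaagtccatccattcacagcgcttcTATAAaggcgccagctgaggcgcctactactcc
The Npas4 window held 2 matches to TGACGTC, 1 on each strand, at positions -181 to -175 and -169 to -163 from the start, and TATAA at -26 to -22. The palindrome TGACGTCA was not matched in it. In the Fos window TGACG was matched at -129 to -125 and at -66 to -62, TGACGTC was not matched, and TATAA stood at -33 to -29. Every match to TGACGTC also holds TGACG. Of 32851 mouse promoter windows of the same length, 2.78% held TGACGTC, 0.0974% held it at least 2 times, 17.8% held TGACG, and 5255 windows held TATAA. These matches describe letters in a window and not bound sites.

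Npas4 was lowest in the double knockout. In wild type it was 246, 113, 196 and 329 normalized counts in replicates 1 to 4. In the Grn knockout it was 193, 195, 88.0 and 171, and in the Trem2 knockout 203, 379, 98.9 and 196. Double-knockout mice had 52.2, 53.2, 91.4 and 97.8. The 4 double-knockout animals held ranks 1, 2, 4 and 5 from the lowest of all 16 animals, and rank 3 was Grn knockout replicate 3. Each other genotype held 1 animal of 113 or less, so low values were not confined to the double knockout. All 16 values lay above the animal's background threshold (its negative controls' mean plus 2 SD, 16.3 to 39.1). They stood 1.98 times above it in double-knockout replicate 1, the closest, and 15.3 times in the farthest.

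**Figure D1:**
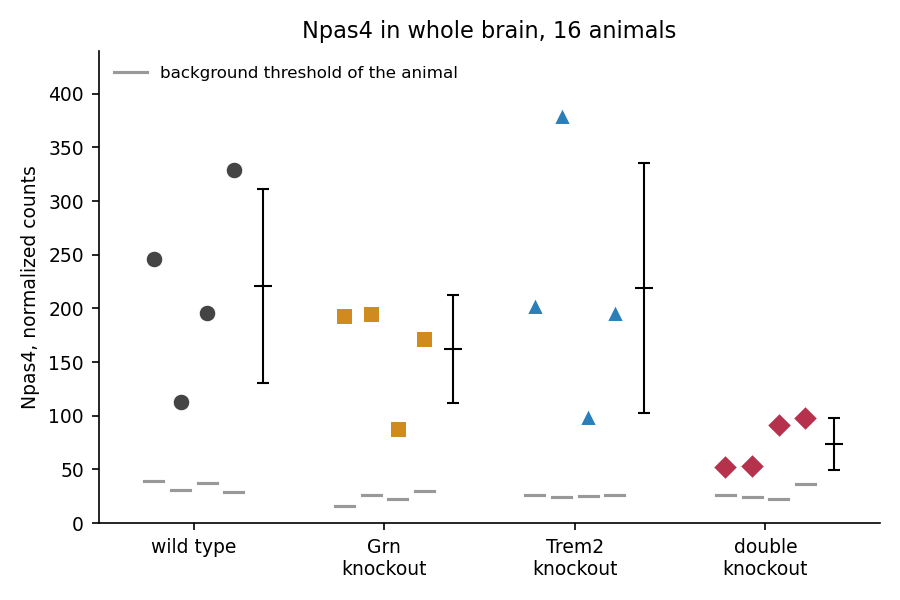
Npas4 in normalized counts on a linear axis (vertical) for each of the 16 animals, by genotype. Symbols are animals, the bars beside them are the mean and SD (n = 4), and the grey dash under each animal is its background threshold. The double-knockout animals lie between 52.2 and 97.8. The lowest Grn knockout animal (88.0) lies inside that range. The lowest Trem2 knockout (98.9) and wild type (113) animals lie above it.

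The mean was 221 ± 90.7 for wild type, 219 ± 117 for Trem2 knockout, 162 ± 50.4 for Grn knockout and 73.6 ± 24.3 for double-knockout mice (SD, n = 4 each). In this order of levels, the means of the neighbours wild type and Trem2 knockout differed by less than either SD. Those of the neighbours Trem2 knockout and Grn knockout differed by less than the SD of the former but by more than that of the latter, and their animals overlapped. The double knockout stood 2.89-fold below wild type (log2 difference -1.53, SE 0.40), 2.76-fold below the Trem2 knockout (-1.46) and 2.17-fold below the Grn knockout (-1.12), with the same SE from 1 fit over 4 genotypes. These comparisons share the same 4 double-knockout animals. The single knockouts differed from wild type by -0.41 (Grn) and -0.07 (Trem2), and from each other by -0.35 (Grn minus Trem2). The interaction, which is the double knockout's departure from the sum of both single differences, was -1.05 on the log2 scale (SE 0.57).

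The double knockout did not overlap wild type or the Trem2 knockout, and it overlapped the Grn knockout through its replicate 3. Of the 708 genes tested, the double knockout lay below wild type without overlap for 4.38%, below the Trem2 knockout for 1.69% and below the Grn knockout for 2.54%. The gaps were small beside the counting error. The highest double-knockout animal, at 97.8 normalized counts, rested on 72 counts, and its 95% Poisson interval (exact, counting error only) reached 123. The lowest Trem2 knockout animal, at 98.9, rested on 91 counts, and the lowest wild type animal, at 112.91, lay inside the same interval. Without Grn knockout replicate 3 the difference of the double knockout from the Grn knockout was -1.39, and that of the Grn knockout from wild type was -0.14.

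Npas4 was among the most variable genes between animals of one genotype. Its pooled SD within genotype was 0.63 on the log2 scale, rank 10 of 708 genes, where the median gene had 0.16. All 94 genes whose mean lay within 1.5-fold of that of Npas4 had a lower SD, with a median of 0.18 and a highest value of 0.49. The ratio of highest to lowest animal was 2.92 for wild type, 2.21 for Grn knockout, 3.83 for Trem2 knockout and 1.87 for double-knockout mice. Coefficients of variation were 41.0%, 31.1%, 53.2% and 33.0% in the same order, against 6.94%, 8.02%, 7.01% and 12.1% from counting alone. The double knockout, with the fewest counts, had the highest share from counting.

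Several genes of high spread were activity-induced. Fos (SD 0.88, rank 3) and Arc (0.73, rank 7) stood above it and Egr1 (0.56, rank 15) just below. Others ranked above Npas4 included Prl, Slc6a4, Nmb, Avp, Slc6a3 and Dbh, with means of 31.0 to 103 normalized counts. These code for hormones, peptides, a transmitter enzyme and transmitter transporters. Their correlations with Npas4 across the 16 animals ranged from -0.31 (Nmb) to 0.46 (Avp), each of them below that of Egr1. Activity-induced genes with a spread nearer the median gene were Ptgs2 (0.22, rank 182), Syt4 (0.18, rank 292) and Jun (0.16, rank 357).

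**Figure D2:**
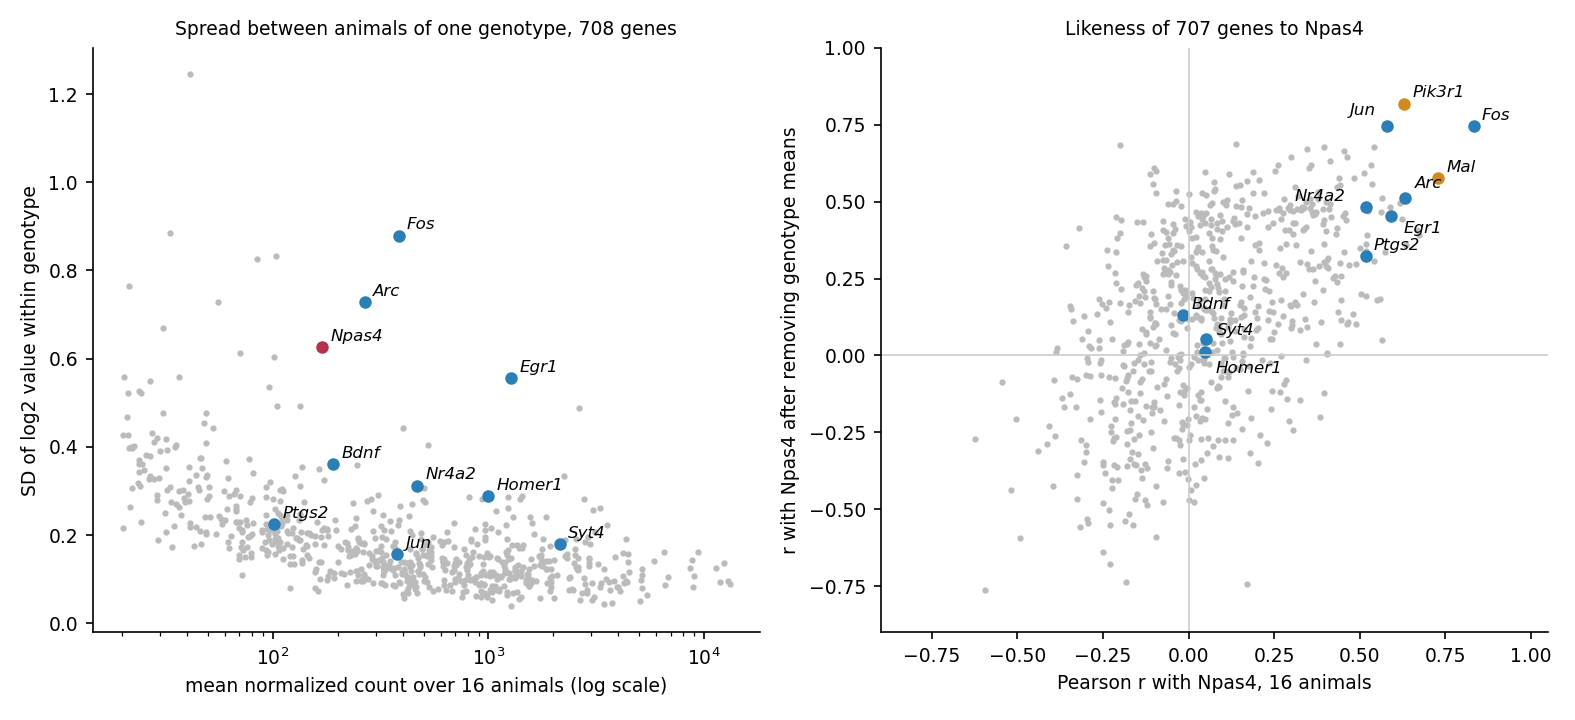
Left, pooled SD of log2 values within genotype (vertical) against the mean normalized count over 16 animals (horizontal, log scale) for 708 genes. Right, Pearson r with Npas4 after removing genotype means (vertical) against r over all 16 animals (horizontal) for 707 genes. Npas4 is red, the 9 other activity-induced genes are blue, Mal and Pik3r1 are orange, and the remaining genes are grey. Fos, Arc, Npas4 and Egr1 lie above the other genes of like level on the left, and Fos lies farthest to the right.

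The panel held 10 of 44 listed activity-induced genes other than Npas4. They were the transcription factor genes Fos, Jun, Egr1, Egr2 and Nr4a2 and the effector genes Arc, Bdnf, Homer1, Ptgs2 and Syt4. Egr2, a zinc-finger factor with a mean of 17.2, was above background in 2 of 16 animals and was not tested further, which left 9. Correlations below are of log2 values across the same 16 animals and share the reference-gene scaling, and they carry no p because Npas4 was chosen for them. The median r of the 9 genes with Npas4 was 0.52 and 8 of 9 were above 0. Over all 707 other genes the median was 0.04, with 409 above 0. After each genotype's mean was subtracted, the median was 0.45 with 9 of 9 above 0, against 0.15 and 474 of 707.

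Fos, which codes for a subunit of the AP-1 factor, was the gene most like Npas4. In wild type it was 698, 138, 391 and 835 normalized counts in replicates 1 to 4. It was 285, 518, 188 and 489 in the Grn knockout and 284, 690, 262 and 580 in the Trem2 knockout. The double-knockout values were 76.3, 250, 293 and 152. In all 4 genotypes the animal with the lowest Fos was the animal with the lowest Npas4, and the animals with the highest values coincided in 3 of 4. Across 16 animals r was 0.83 (rho 0.82), rank 1 of 707 genes, and within genotype r was 0.75, rank 3. Without the 2 animals farthest from the median Npas4, which were double-knockout replicates 1 and 2, r was 0.84.

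**Figure D3:**
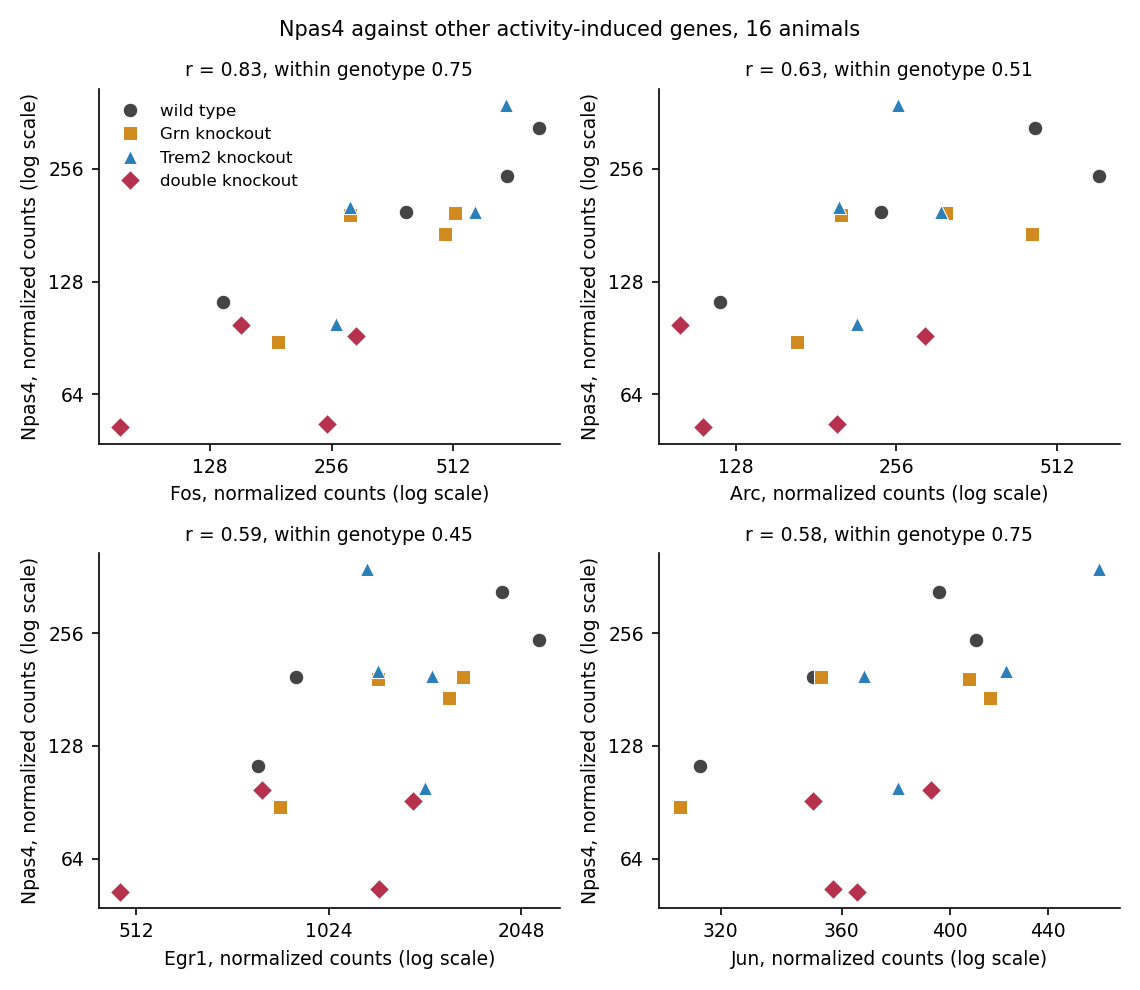
Npas4 (vertical) against Fos, Arc, Egr1 and Jun (horizontal) in normalized counts on log axes, with each point 1 of 16 animals and symbols marking genotype. The r values of 0.83, 0.63, 0.59 and 0.58 are over all animals. Double-knockout replicate 2, the diamond with the second lowest Npas4, lies below the other animals of like Fos.

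The ratio of Npas4 to Fos in the same animal compares the pair across animals, since its size also depends on the probes. Its median was 0.448 for wild type, 0.422 for Grn knockout, 0.463 for Trem2 knockout and 0.477 for double-knockout mice. The ranges were 0.352 to 0.819, 0.351 to 0.678, 0.338 to 0.712 and 0.213 to 0.684, and they overlapped. The lowest ratio was that of double-knockout replicate 2, in which Npas4 was 53.2 and Fos 250. Relative to Egr1 the ratio was 0.113 to 0.215 in wild type and 0.0434 to 0.122 in the double knockout, and these also overlapped. The Egr1 medians were 0.157 for wild type, 0.113 for Grn knockout, 0.149 for Trem2 knockout and 0.0871 for double-knockout mice. Relative to Arc the medians were 0.762, 0.571, 0.822 and 0.391 in the same order. The Arc ranges overlapped, at 0.401 to 0.942 in wild type and 0.268 to 0.973 in the double knockout.

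Arc, which codes for a postsynaptic protein that regulates glutamate receptor trafficking, had r = 0.63 with Npas4 (rho 0.65, within genotype 0.51). It was 613, 120, 239 and 466 normalized counts in wild type and 201, 318, 167 and 460.0 in the Grn knockout. It was 200.2, 258, 216 and 310.0 in the Trem2 knockout. In double-knockout mice it was 111, 198, 290.4 and 101. Its lowest animal coincided with that of Npas4 in wild type and the Grn knockout, and its highest animal in 0 of 4 genotypes. Trem2 knockout replicate 2, which had the highest Npas4 of all animals, had the second highest Arc of its own group.

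Egr1, a zinc-finger factor gene, had r = 0.59 (rho 0.47, within genotype 0.45). Its values were 2182, 794, 911 and 1914 in wild type, 1222, 1659, 860.1 and 1578 in Grn knockout, 1222, 1176, 1447 and 1483 in Trem2 knockout and 482, 1225, 1385 and 804 in double-knockout mice. The lowest Egr1 animal was the lowest Npas4 animal in every genotype but the Trem2 knockout, where the animal with the highest Npas4 had the lowest Egr1.

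Jun, the gene of an AP-1 partner of Fos, varied little between animals and yet followed Npas4 within genotype. Its values were 410.3, 314, 350.1 and 396 in wild type, 407, 353, 307 and 416 in Grn knockout, 422, 462, 380.2 and 368 in Trem2 knockout and 365, 357, 350.0 and 393 in double-knockout mice. Its r was 0.58 over all animals and 0.75 within genotype, rank 2 of 707. In the Trem2 knockout, replicate 2 was highest for both genes. The double-knockout animals, although lowest for Npas4, lay amid the other groups for Jun.

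Nr4a2, which codes for an orphan nuclear receptor, had r = 0.52 (rho 0.59) and Ptgs2, the gene of the inducible cyclooxygenase, 0.52 (rho 0.64). Within genotype these were 0.48 and 0.32. The remaining effector genes did not follow Npas4. The neurotrophin gene Bdnf had r = -0.02, Homer1, which codes for a postsynaptic scaffold, 0.05, and the synaptotagmin gene Syt4 0.05. Bdnf was the only one of 6 listed target genes of Npas4 on the panel, and neither ARNT gene was measured. Its mean was 184 ± 49.6 for wild type, 176 ± 23.7 for Grn knockout, 202 ± 64.8 for Trem2 knockout and 201 ± 37.9 for double-knockout mice (SD, n = 4 each), with overlapping ranges. The animal with the highest Bdnf was that with the highest Npas4 in 3 of 4 genotypes, and the exception was the Trem2 knockout, where replicate 2 had the highest Npas4 and, at 125, the lowest Bdnf.

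Whether the other activity-induced genes differed by genotype was tested with limma over 708 genes. The mean of Fos was 515 ± 313 for wild type, 370.0 ± 159 for Grn knockout, 454 ± 214 for Trem2 knockout and 193 ± 97.6 for double-knockout mice (SD, n = 4 each). That of Arc was 360 ± 222, 286 ± 132, 246 ± 49.1 and 175 ± 88.4 in the same order, and Egr1 1450 ± 701, 1330.0 ± 366, 1332 ± 155 and 974 ± 409. Each of the 3 had its lowest mean in the double knockout, where their group ranges overlapped those of every other genotype. Nr4a2, Ptgs2 and Jun also had their lowest means there, Jun at 366 against 367 in wild type. None of the 9 genes passed limma's adjusted p of 0.05 in any of the 6 pairwise comparisons. The share of all genes that passed was 0.282% for double knockout against wild type, 0.282% against the Grn knockout and 0.424% against the Trem2 knockout. It was 0.565% for Grn knockout against wild type, 0.141% for Trem2 knockout against wild type and 0.847% for Grn against Trem2 knockout. The knocked-out genes Grn and Trem2 are themselves among the 708 genes of these shares. At an unadjusted p under 0.05, 3 of these 54 tests passed (5.56%, against 6.00% of 4248 tests over all genes), namely Fos in the double knockout against wild type and against the Trem2 knockout, and Ptgs2 in the latter.

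For Fos the log2 difference of the double knockout was -1.30 from wild type (SE 0.56, limma adjusted p = 0.575), -0.99 from the Grn knockout (adjusted p = 0.764) and -1.28 from the Trem2 knockout (adjusted p = 0.835). Arc differed from wild type by -0.91 (SE 0.46, limma adjusted p = 0.696) and Egr1 by -0.55 (SE 0.35, limma adjusted p = 0.713). The other tested genes lay closer to wild type, with log2 differences of -0.16 for Ptgs2, -0.14 for Nr4a2, -0.02 for Syt4, 0.00 for Jun, 0.08 for Homer1 and 0.15 for Bdnf. The 95% intervals of the fit reached from -2.49 to -0.10 for Fos and from -0.23 to 0.24 for Jun. The log2 difference of Npas4, -1.53, is set beside these as a description only, since its levels chose the gene. Its SE was smaller than those of Fos and Arc and larger than that of Egr1.

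**Figure D4:**
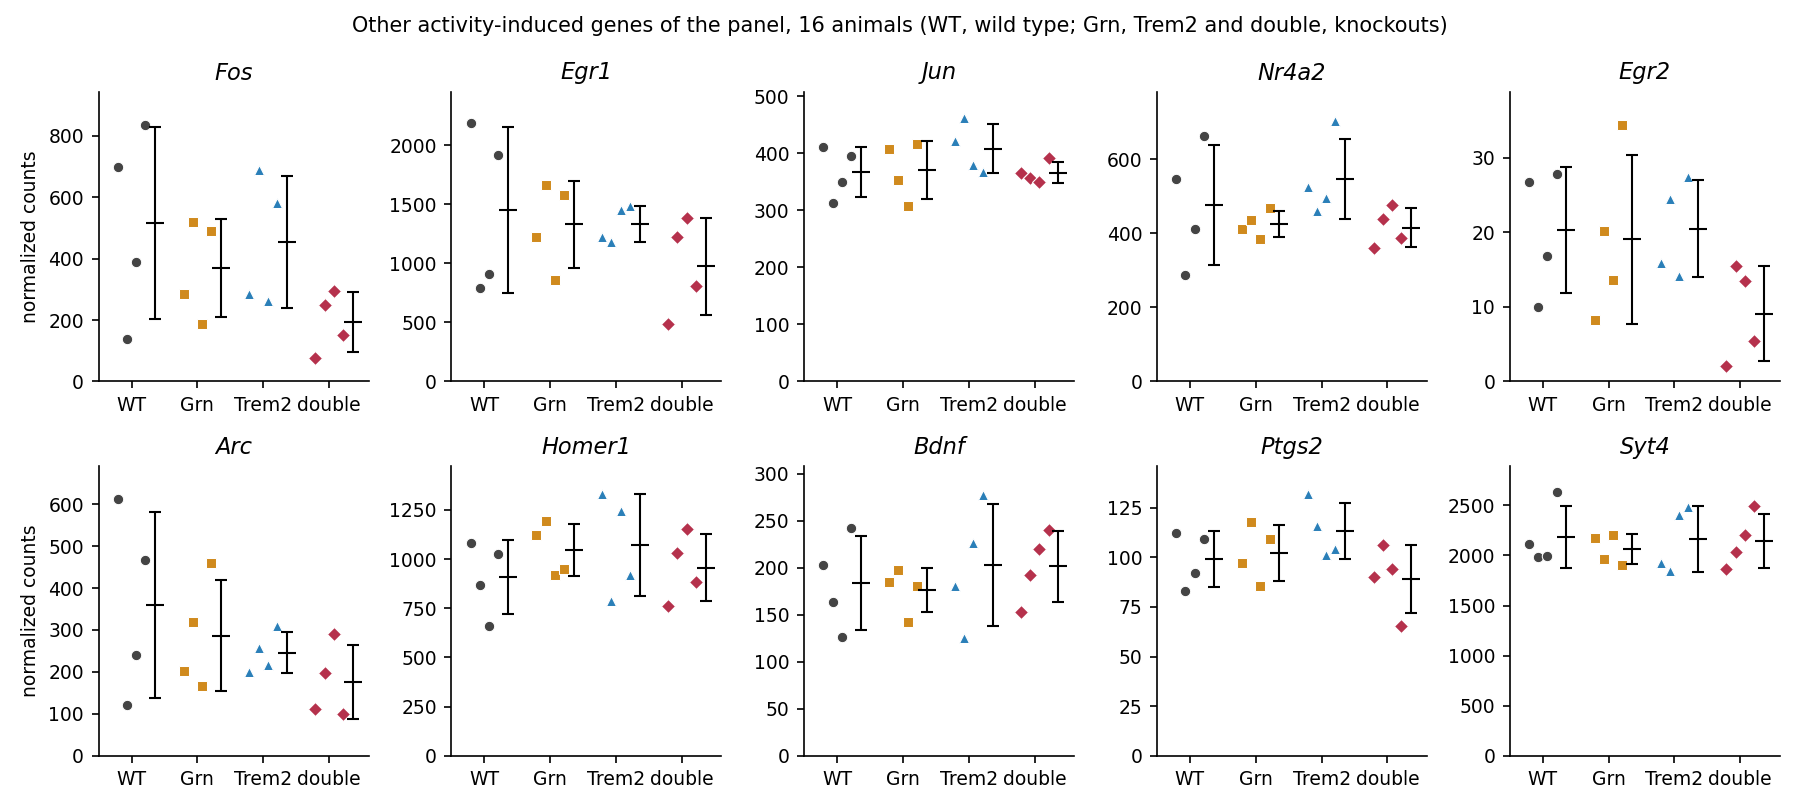
The 10 other activity-induced genes of the panel, each in normalized counts on its own linear axis (vertical) by genotype (horizontal, WT for wild type). Points are animals and the bars beside them are the mean and SD (n = 4). Fos, Egr1, Arc, Egr2, Nr4a2 and Ptgs2 have their lowest means in the double knockout with overlapping animals, as does Jun by a small margin. Jun, Homer1, Bdnf and Syt4 lie at like levels in all groups.

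**Figure D5:**
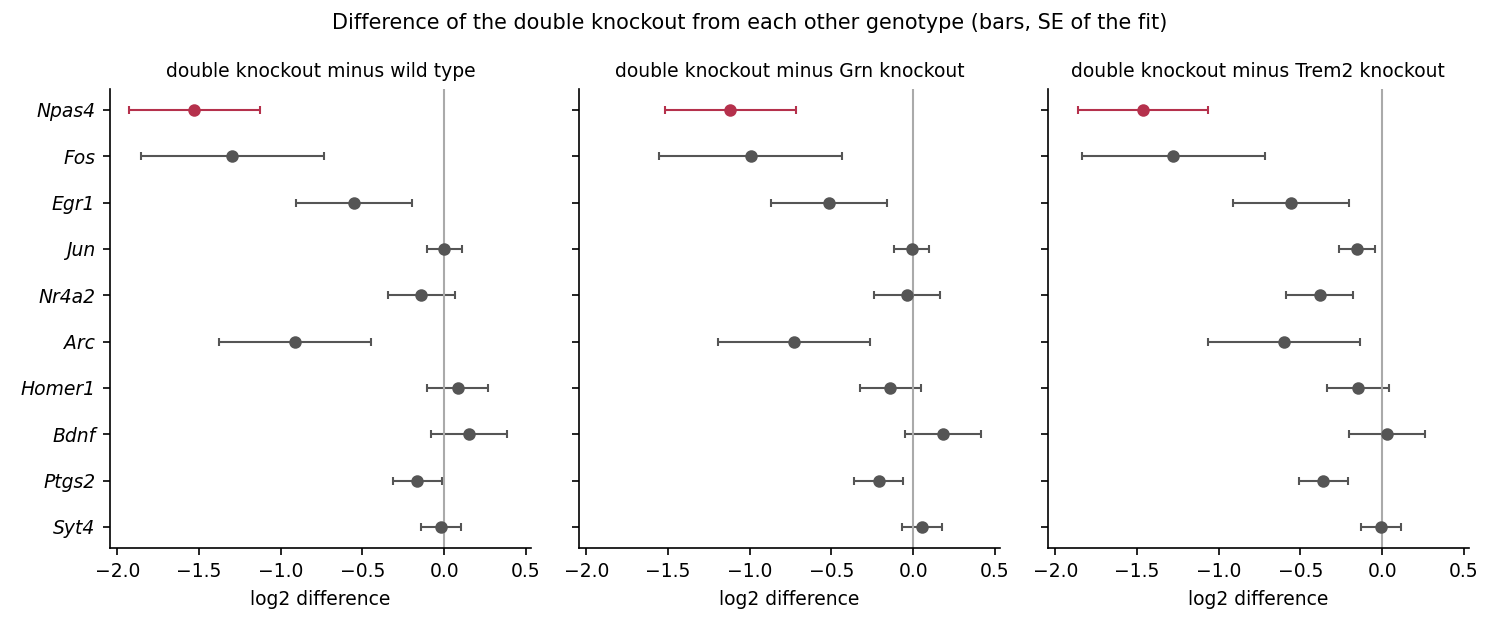
Log2 difference (horizontal) of the double knockout from wild type, Grn knockout and Trem2 knockout for Npas4 (red) and 9 other activity-induced genes (vertical). Points are differences of group means and bars are the SE of the fit. Npas4 and Fos lie farthest below 0 in each panel, and Jun, Syt4, Homer1 and Bdnf lie near 0.

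With Npas4 left out, the activity-induced genes were also compared with each other across the 16 animals, in 36 pairs with two-sided permutation tests adjusted by Benjamini-Hochberg over the pairs. Of these, 11 passed an adjusted p of 0.05 by Pearson's r, 12 by Spearman's rho and 10 within genotype, and 8 passed all 3. Fos and Arc had r = 0.89 (rho 0.93, permutation p = 1e-05 for each, the smallest these permutations can give, adjusted p = 0.00018 and 0.00036). Egr1 and Arc had r = 0.89 (rho 0.90, permutation adjusted p = 0.00018 and 0.00036), and Fos and Egr1 r = 0.86 (rho 0.79, permutation adjusted p = 0.00024 and 0.00396). Without the 2 animals farthest from the median of the first gene, r was 0.87, 0.87 and 0.75. Within genotype r was 0.88, 0.88 and 0.84. Jun, which was near Npas4 within genotype, passed with none of Fos, Egr1 and Arc (r = 0.48, 0.38 and 0.38, permutation adjusted p = 0.124, 0.244 and 0.247).

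Over all genes tested, 31 of 707 had r of at least 0.5 with Npas4 and 9 had at least 0.6. After Fos, the highest r values included those of Mal (0.73), Arhgef10 (0.67), Polr2l (0.67), Sec23a (0.63), Arc (0.63), Pik3r1 (0.63), Bche (0.62) and Egr1 (0.59). Mal codes for a proteolipid of myelin, Arhgef10 for a guanine nucleotide exchange factor, Polr2l for a subunit of RNA polymerase and Sec23a for a vesicle coat protein. Mal fell to r = 0.58 within genotype, and its 1424 to 1670.3 normalized counts in wild type did not overlap its 998 to 1098 in the double knockout (log2 difference -0.55, limma adjusted p = 0.0920). Of the 5 oligodendrocyte and myelin genes measured, 2 had r above 0 within genotype, Mal among them, and the median was -0.33. Pik3r1, which codes for a regulatory subunit of PI3K, had the highest r within genotype at 0.82. It differed little between the double knockout and wild type (log2 difference -0.03, SE 0.09, limma adjusted p = 0.938).

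The next genes by likeness within genotype included Jun, Fos, Opa1 (0.69), Cd68 (0.68), Prkaca (0.68), Gnao1 (0.68), Prkaa2 (0.67) and Cntnap2 (0.67). Prkaca codes for the catalytic subunit of protein kinase A, and Cd68 is a lysosomal marker of microglia. Cd68 had r = -0.20 with Npas4 over all animals, of opposite sign to its value within genotype. The lowest r values over all animals were those of Cnot10 (-0.62), Itga7 (-0.59), Hgf (-0.55), Dgke (-0.52) and Casp1 (-0.50). Cnot10 is 1 of the 10 reference genes by which every value was scaled.

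Genes that carry calcium signals from the synapse to the nucleus were measured for 21 of 34 listed. Their median r with Npas4 was 0.00 over all animals (11 of 21 above 0) and 0.23 within genotype (18 of 21 above 0). Among the most alike within genotype were Prkaca, the NMDA receptor subunit gene Grin2b (0.59) and Ppp3cb of calcineurin (0.53). Over all animals Grin2b had r = -0.11, and in the double knockout, where Npas4 was lowest, it stood 0.51 above wild type on the log2 scale (SE 0.19, limma adjusted p = 0.436). None of the 21 passed limma's threshold in any pairwise comparison, and 5 of 126 tests (3.97%, against 6.00% of the 4248 tests over all genes) had an unadjusted p under 0.05, all of them of Grin2a or Grin2b.

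Genes of inhibitory neurons and synapses, on which Npas4 is known to act, were measured for 14 of 21 listed. Their median r was 0.01 over all animals and 0.20 within genotype, with 10 of 14 above 0. Gad2, which codes for a GABA-synthesizing enzyme, was among the more alike within genotype (0.46). None of the 14 passed limma's threshold in any pairwise comparison, and 1 of 84 tests had an unadjusted p under 0.05 (1.19%, against 6.00% over all genes).

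Markers of cell types were set beside Npas4 as summed normalized counts. The 5 of 13 pan-neuronal genes measured summed to 11471 to 13163 in wild type and 11929 to 12666 in the double knockout. The sum had r = -0.13 with Npas4 (within genotype 0.08). Taken gene by gene, these markers went opposite ways, with 2 of 5 above 0 over all animals and 3 of 5 within genotype. Within genotype they ranged from -0.68 (Nefl) to 0.55 (Syt1), with a median of 0.02. The 3 of 9 striatal genes had r = 0.33 (within genotype 0.45) and the 2 of 9 forebrain excitatory genes 0.20 (0.46). The striatal sum overlapped, at 493 to 1106 in wild type and 661 to 977 in the double knockout, as did the forebrain sum at 684 to 840.3 and 760.4 to 838. The 7 of 13 genes of midbrain, brainstem and cerebellum had r = -0.05. How far neuronal content bears on the Npas4 values was not tested.

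Among other cell types, the 5 of 8 endothelial genes summed to 857 to 1031 in wild type and 694 to 816 in the double knockout without overlap, with r = 0.23 (within genotype -0.29). The 5 of 9 oligodendrocyte and myelin genes summed to 5788 to 7598 and 4793 to 6520, with r = 0.15 (-0.25). The 5 of 7 astrocyte genes had r = -0.13 (-0.03). Slc1a2, with a mean of 11407 normalized counts, made up most of that sum. Taken gene by gene, the median astrocyte r was -0.22 (within genotype -0.41), with 1 of 5 above 0 in each form. The 10 of 10 microglial genes, of which Aif1 was not above background in any animal, had 0.00 (0.51). Of the choroid plexus list 0 of 4 genes were on the panel. The part of these cell types in the Npas4 values was not tested. Among technical measures, r with Npas4 was 0.05 for the scaled negative controls (within genotype -0.19), 0.08 for the sum of positive controls (-0.12), -0.02 for the scaling factor (-0.08) and 0.07 for total gene counts (0.21).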

How the data were processed

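Whole-brain RNA of 16 mice was measured with an nCounter panel, per the labels. The deposited signal holds 770 genes, 6 positive and 8 negative control probes per animal. The authors' software and normalization are not stated in the labels. In each animal at least 99.74% of gene values were whole multiples of 1 step (tolerance 0.0075 counts), and 10 genes had an equal geometric mean (321.56), so each deposited signal is a count times 1 factor (0.907 to 1.36). Control probes are unscaled.

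Genes with a mean of at least 20 (708; 62 were not) were fitted as log2(value + 1) with limma 3.58.1 in R 4.3.3, with 4 group means, 12 residual degrees of freedom, two-sided tests and a Benjamini-Hochberg adjusted p (over all genes tested, per comparison) of 0.05. The pseudocount makes differences of weak genes slightly too small, and no background was subtracted. Groups follow each sample's genotype label, and each animal has a number of its own. The p-values of limma set differences of group means against the spread between these animals. Those of gene pairs come from permuting the animals. The labels name neither cartridge nor run day. Each animal's counts set the precision of its values, and intervals cover counting error only.

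Likeness to Npas4 is Pearson's r and Spearman's rho over log2 values, pooled and as deviations from genotype means. Pairs of other activity-induced genes were tested with 100000 permutations, an analysis added after seeing the data, as was the ratio of Npas4 to other genes. Npas4 and the gene lists were chosen with earlier results of these data known. Genes named are the members of the activity, partner and target lists, up to 4 members of each other list with the largest absolute r within genotype, the 10 highest and 5 lowest r in each form, and Grn and Trem2. Grin2a and the genes of largest spread were named after their values were seen. Promoter windows came from RefSeq tables (8 of 11 activity genes matched, Npas4 included). Some genes that this rule names are not reported here. Scripts were tested on simulated data. Other pseudocounts, filters, scalings and omitted animals are given in the closing section.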

Additional observations from a re-analysis of the deposited data

Results flagged for a closer look

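Npas4 in Grn knockout replicate 3 stood apart from its group on the log2 scale. It was 88.0 normalized counts, while the other 3 animals lay between 171 and 195. As log2(value + 1), its gap to the nearest was 0.838 of the group's range, above Dixon's 95% critical value for 4 samples. On the normalized counts themselves the gap of this animal was a smaller share of the range, below that critical value. The flag therefore depends on the scale. The same animal had the lowest Fos, Arc, Egr1 and Jun of its group, at 188, 167, 860.1 and 307. Of 44 groups of values checked, Npas4 in the Grn knockout was the only one past the limit. Chance gives about 1 in 20, so the number of such groups is no more than chance would give. The flag is a description of this animal and not a test of Npas4, since the Npas4 levels chose the gene. The animal also had the fewest gene counts of the 16 (477113). Its scaling factor was 1.35, against 0.907 to 1.07 in the rest of its group. Whether these bear on its values was not tested.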

How the results depend on the processing

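The log2 difference of Npas4 between double knockout and wild type, -1.53, ranged from -1.74 with negative controls subtracted to -1.17 with scaling to the positive controls over 8 settings, and from -1.82 to -1.30 with any 1 animal left out. The ranges were -1.33 to -1.03 and -1.39 to -0.98 against the Grn knockout, and -1.69 to -1.31 and -1.79 to -1.15 against the Trem2 knockout. For Trem2 knockout against wild type (-0.07) the sign turned with scaling to the positive controls (0.14) and across omitted animals (-0.38 to 0.26). That scaling moved the median of all genes by 0.36 between double knockout and wild type, relative to which Npas4 was -1.53. It raised the within-genotype SD of Npas4 from 0.63 to 0.78, and it turned Ptgs2 in that comparison from -0.16 to 0.19 (limma adjusted p = 0.639). The SD was 0.56 to 0.65 with 1 animal left out. The median r of activity-induced genes with Npas4 was 0.45 to 0.59 in 11 settings and with any animal left out. Their calls remained 0 in 10 settings. Gene pairs past the threshold numbered 10 to 12 by the other measures and 7 to 16 with 1 animal left out, the 7 without wild type replicate 2. Calls over all genes for double knockout against wild type went from 2 to 8 with quantile normalization, 4 with positive-control scaling and up to 6 with 1 animal left out (6 and 5 without Grn knockout replicate 1 or 2, 4 without wild type replicate 1). They went from 4 to 1 for Grn knockout against wild type and from 1 to 3 for Trem2 knockout against wild type with positive-control scaling, and from 0 to 1 for the interaction. With 1 animal left out, calls for double knockout against Grn knockout (2) were 1 to 3 and moved by over 1.5 times for all but 4 of the 16 animals. Those for double knockout against Trem2 knockout went from 3 to 1 without Trem2 knockout replicate 4, those for Grn against Trem2 knockout from 6 to 10 without Trem2 knockout replicate 1, and those for Trem2 knockout against wild type from 1 to 2 without Grn knockout replicate 1 or 4 or Trem2 knockout replicate 4. Causes were not tested. No paired analysis was possible because the animals share no replicate number in the labels. The count models planned on recovered whole counts (edgeR and DESeq2) were not run. Npas4 rested on counts of 52 to 372, with 4 animals a group. At the mean count of each group, counting error alone gave a coefficient of variation of 6.94% to 12.1%. Small gaps between single animals cannot be resolved.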
